A study of Homo sapiens with 12 samples.

Results

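The 10 genes described here were ATF4, DDIT3, ASNS, TRIB3, CHAC1, PSAT1, DDIT4, HSPA5, HSP90B1 and XBP1, which belong to the integrated stress response and the unfolded protein response. They were picked by gene name, and all 10 were found among the 58684 genes of the count table and among the 12460 genes with enough counts to be tested. The libraries came from U2OS cells, a human osteosarcoma line, in 4 groups of 3. Cells that stably carried eIF4E-Flag gave Cap IP and input libraries, and cells that stably carried the vector gave Cap IP and input libraries. Input is total RNA, and Cap IP is RNA recovered with an antibody against the m7G cap. The labels name no stress agent or starvation, and all 4 groups share the line and its standard culture. The sources used here give neither the promoter that drives eIF4E-Flag nor whether the stable lines are clones or pools.

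Cells that face misfolded proteins in the endoplasmic reticulum (ER) or a shortage of amino acids phosphorylate the initiation factor eIF2, which lowers most translation but raises that of ATF4 through upstream open reading frames in its mRNA. ATF4 is a transcription factor that turns on amino acid synthesis and transport genes, and with prolonged stress DDIT3 (CHOP), TRIB3 and CHAC1. In parallel, the ER sensors ATF6 and IRE1 act through cleaved ATF6 and spliced XBP1, which raise ER chaperones such as HSPA5 (BiP) and HSP90B1 (GRP94). eIF4E binds the m7G cap and brings mRNAs to the ribosome, and the series asks whether it alters how much of each transcript is capped.

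Libraries held 1206321 to 1813486 counts. The 10 genes together had 572 to 1004 counts in Cap IP libraries and 1103 to 1860 in input libraries, so a single library measured the low genes from few reads. Levels below are CPM, a gene's share of the library size after TMM scaling (trimmed mean of M values), on which 3 counts, taken as the floor, correspond to 1.19 to 3.15 CPM. EIF4E itself averaged 27.2 ± 2.35 CPM in eIF4E Cap IP, 15.4 ± 3.36 in vector Cap IP, 13.5 ± 1.76 in eIF4E input and 6.94 ± 2.5 in vector input (SD, n = 3 each). It lay above vector in all 3 eIF4E input libraries, by 0.98 ± 0.36 on the log2 scale (SE), which did not pass (adjusted p = 0.231, Benjamini-Hochberg, from edgeR's quasi-likelihood test). Of the 8 osteoblast and osteosarcoma markers, 3 were tested and 1 (IBSP) was at 0 in every library. The 8 summed to 797 to 1073 CPM in eIF4E input and 975 to 1425 in vector input. A list of 5 epithelial markers, with KRT8 the most counted, summed to 2445 to 3982 and 1366 to 2241 CPM in the same groups. The labels do not say whether replicates are separate cultures, so p-values measure the spread between these samples, which may be technical. In bulk RNA of 1 line, fewer cells with an RNA and less of it per cell cannot be told apart. The kit keeps the strand of each read, but the sources used here do not give which strand setting the counting had. Among 222 pairs of a gene and its antisense gene with at least 1200 counts per pair, the antisense gene held more counts in 175 (78.8%). The median ratio of antisense over sense counts in these pairs was 4.25. What the counts of a gene measure is therefore uncertain, most directly where its exons lie opposite to another gene. A gene without opposite exons, such as ATF4 or HSPA5, is not exempt from this doubt. How far it reaches was not tested.

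In the main fit, without a block, none of the 10 genes was called in any of the 5 comparisons by edgeR's quasi-likelihood test (adjusted p under 0.05 over 12460 genes), and none had an unadjusted p under 0.05. DESeq2 called none of them either. Between eIF4E and vector input, 0 of the 10 were called, where 0.53% of all tested genes were. For Cap IP against input, 0 of the 10 were called in eIF4E cells, where 45.1% of all genes were, and 0 of the 10 in vector cells, where 39.5% were. For the difference of Cap IP enrichment between eIF4E and vector cells, 0 of the 10 were called and so was 0% of all genes by edgeR and DESeq2, while 5.84% of all genes had an unadjusted p under 0.05. Between eIF4E and vector Cap IP, 0 of the 10 were called and 0.225% of all genes. An unadjusted p under 0.05 was found for 52.4% of all genes for Cap IP against input in eIF4E cells and 48.1% in vector cells, and for 9.2% between eIF4E and vector Cap IP and 13.5% in input. For Cap IP against input, 0 of the 10 had separate groups, where 25.4% of all genes were higher and 29.5% lower without overlap in eIF4E cells, and 22.7% higher and 27.2% lower in vector cells. Between eIF4E and vector input 0 of the 10 did, where 8.45% of all genes were higher and 10.2% lower without overlap. Titles of eIF4E and vector libraries share a tag, and with that tag as a block the comparison of eIF4E and vector Cap IP called 155 genes in place of 28, and 0 of the 10. Titles of Cap IP and input libraries share a stem. With the stem as a block, Cap IP against input in eIF4E cells called 6690 genes in place of 5625, and 2 of the 10, DDIT3 and HSP90B1. In vector cells that block called 6084 genes in place of 4921, and 0 of the 10. Calls under other library sizes are given at the end. With these 3 libraries a group, the standard errors of the 10 genes for eIF4E minus vector ran from 0.26 to 0.97 in Cap IP and from 0.25 to 0.77 in input on the log2 scale. A missed threshold therefore leaves wide intervals, which are given below and drawn in the plot of fitted changes.

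**Figure D1:**
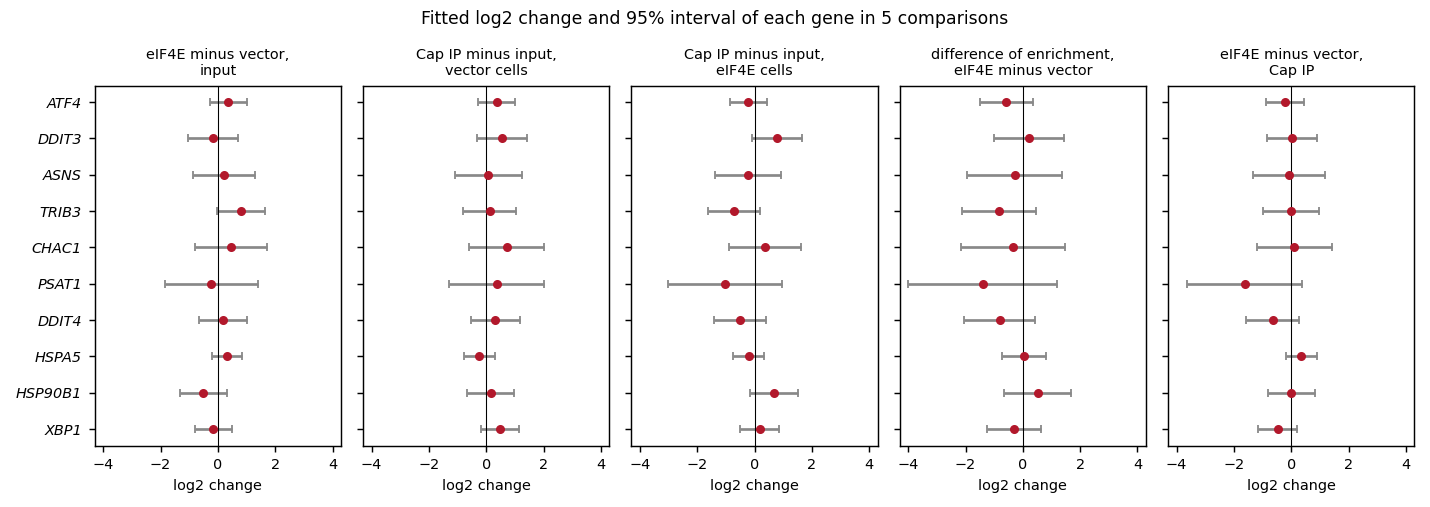
Fitted log2 change (red points) and 95% interval (grey bars) of each of the 10 genes in 5 comparisons, from edgeR's model over all 12 libraries. Every interval includes 0, and the widest are those of PSAT1.

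Compared per kilobase of the canonical transcript, the level of DDIT3 was the highest of the 10 in every group. The strand doubt applies to this rank, since 27.2% of DDIT3 exon bases lie opposite to another gene, MARS1. The part of MARS1 reads in the DDIT3 counts was not tested. DDIT3 averaged 321 ± 148 CPM per kb in eIF4E Cap IP, 314 ± 175 in vector Cap IP, 188 ± 30.6 in eIF4E input and 212 ± 77.8 in vector input (SD, n = 3 each), and its lowest library lay above the highest of ATF4 in each group. ATF4 came second, at 77.8 ± 27.2 CPM per kb in eIF4E Cap IP and 70.4 ± 25 in vector input. The chaperone genes HSP90B1 and HSPA5 followed, between 24.9 ± 1.10 and 58.0 ± 20.7 CPM per kb as group means, and their libraries overlapped in eIF4E input only. ATF4 overlapped with HSP90B1 in eIF4E Cap IP and vector input, HSP90B1 with XBP1 and DDIT4 in eIF4E input, and HSPA5 with XBP1 in vector Cap IP. XBP1 and then DDIT4 came next in every group, with overlap between them in 3 of the 4 groups. CHAC1, ASNS, TRIB3 and PSAT1 were the lowest, at group means of 1.53 ± 1.51 to 6.99 ± 3.54 CPM per kb. DDIT4 overlapped with the next of them in every group except vector input, and XBP1 with TRIB3 in eIF4E input. Among these 4 the libraries of neighbours in the order overlapped in every group, except that TRIB3 lay above PSAT1 in eIF4E Cap IP. Summed over 12 libraries, DDIT3 had 3913 counts, HSP90B1 2599, HSPA5 2337, ATF4 2177, XBP1 559, DDIT4 379, TRIB3 221, ASNS 200, CHAC1 144 and PSAT1 135.

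**Figure D2:**
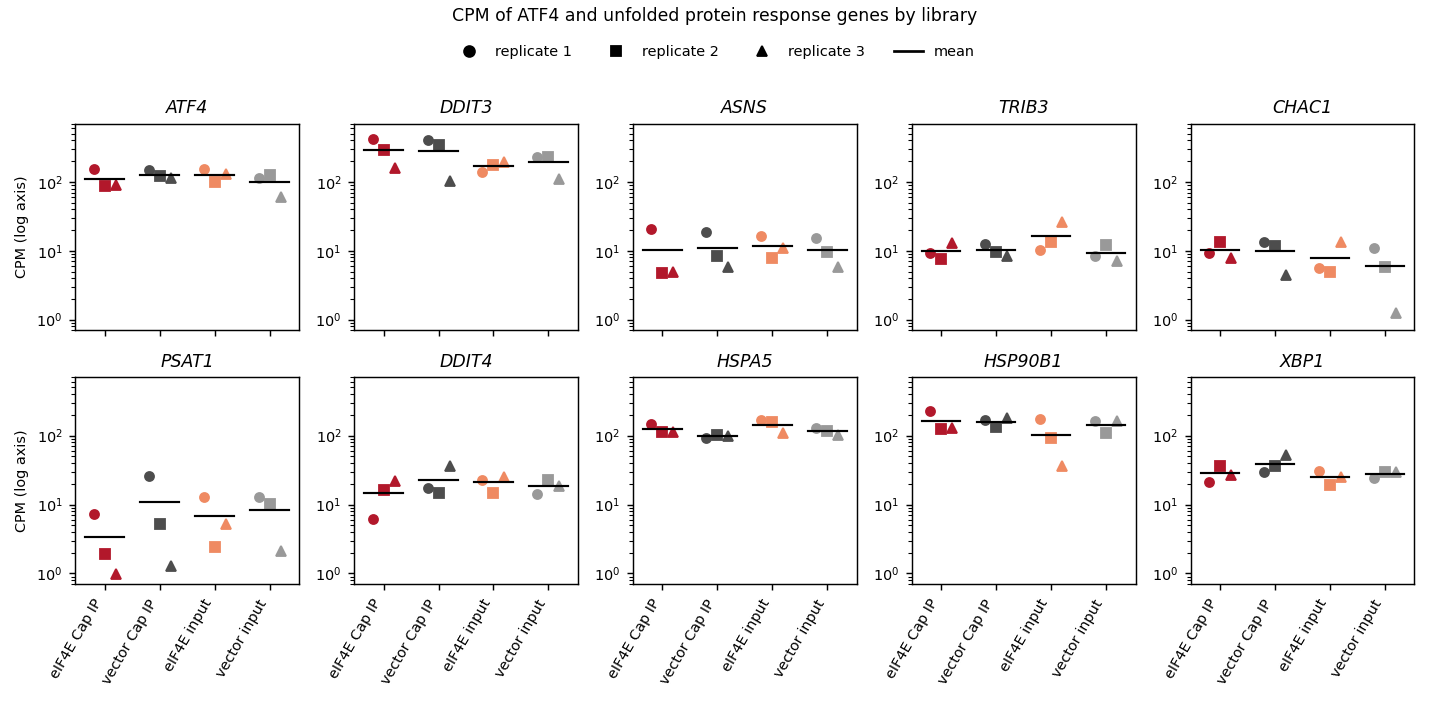
CPM (log axis) of each of the 10 genes in each library, by group, with replicates 1 to 3 as circles, squares and triangles and the group mean as a bar. DDIT3, ATF4, HSPA5 and HSP90B1 lie near or above 100 CPM in most libraries, and PSAT1 spreads from 0.992 to 26.3 CPM.

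ATF4, the transcription factor at the centre of the group, lies on chromosome 22 at 39519695 to 39522683 of GRCh38 (plus strand) and has no annotated exon opposite to it. Cap IP libraries held 155, 86.0 and 90.2 CPM of ATF4 in eIF4E cells, against 149, 121 and 114 in vector cells (replicates 1, 2 and 3). In input it had 155, 98.2 and 131 CPM in eIF4E cells and 112, 127 and 59.9 in vector cells. The groups overlapped in every comparison, and the lowest library was vector input replicate 3. The fitted difference between eIF4E and vector was 0.36 ± 0.31 (SE, edgeR adjusted p = 0.634) in input on the log2 scale, with a 95% interval of -0.29 to 1.01, and -0.21 ± 0.32 (SE, edgeR adjusted p = 0.877) in Cap IP. Cap IP minus input was -0.22 ± 0.31 (SE, edgeR adjusted p = 0.598) in eIF4E cells and 0.36 ± 0.31 (SE, edgeR adjusted p = 0.380) in vector cells. The difference of these was -0.58 ± 0.44 (SE, edgeR adjusted p = 0.872), with an interval of -1.50 to 0.35.

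DDIT3, or CHOP, a transcription factor that ATF4 turns on and that favours cell death in prolonged stress, lies on chromosome 12 at 57516588 to 57521737 (minus strand). It had 425, 286 and 158 CPM in eIF4E Cap IP, against 139, 178 and 192 in eIF4E input. In vector cells it had 405, 339 and 105 CPM in Cap IP and 233, 231 and 110.5 in input. Replicates 1 and 2 of Cap IP were above all input libraries of the same cells, and replicate 3 of Cap IP was below at least 1 of them, so the groups overlapped. Cap IP minus input was 0.77 ± 0.42 (SE, edgeR adjusted p = 0.140) in eIF4E cells, with an interval of -0.10 to 1.64, and 0.56 ± 0.42 (SE, edgeR adjusted p = 0.297) in vector cells. With the title stem as a block DDIT3 was called higher in Cap IP of eIF4E cells. Between eIF4E and vector the fitted difference was -0.17 ± 0.42 (SE, edgeR adjusted p = 0.888) in input and 0.04 ± 0.42 (SE, edgeR adjusted p = 0.990) in Cap IP.

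The DDIT3 counts carry the strand doubt most directly, since 355 of its 1307 exon bases (27.2%) lie opposite to MARS1, the methionyl-tRNA synthetase gene (MARS in the count table), and 58 opposite to MBD6. MARS had 86.2, 55.0 and 54.5 CPM in eIF4E Cap IP, against 98.8, 100.2 and 129.8 in eIF4E input. In vector cells MARS had 75.8, 67.3 and 48.5 CPM in Cap IP and 118, 125 and 65.8 in input. MARS was lower in each eIF4E Cap IP library than in each eIF4E input library, the opposite sign to DDIT3. Its Cap IP minus input was -0.75 ± 0.30 (SE, edgeR adjusted p = 0.0509) in eIF4E cells and -0.69 ± 0.30 (SE, edgeR adjusted p = 0.0769) in vector cells, and neither passed. MBD6 was at -0.45 ± 0.31 and -0.38 ± 0.31 on the same scale (SE). The strand doubt applies to the counts of MARS and MBD6 too, so their signs cannot show whose reads the DDIT3 counts hold. Among 4171 well counted genes, the 4 whose log2 CPM followed DDIT3 most closely over the 12 libraries were MCCD1, LSMEM2, MGC16275 and LRRC75A (Pearson r 0.942, 0.938, 0.931 and 0.913). All 4 have exons opposite to another gene (DDX39B, IFRD2, RPL38 and SNHG29), as did at least 1988 (47.7%) of the 4171. Only 3161 of the 4171 were matched to the annotation, and the unmatched genes count as having none, so 47.7% is a lower bound. The 12 points include both Cap IP and input libraries, and the part of that and of strand assignment in these correlations was not tested.

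The amino acid genes ASNS, which makes asparagine, and PSAT1, an enzyme of serine synthesis, were low. ASNS had 20.5, 4.83 and 4.96 CPM in eIF4E Cap IP, 18.5, 8.41 and 5.75 in vector Cap IP, 16.2, 7.82 and 10.9 in eIF4E input and 15.5, 9.62 and 5.90 in vector input. Replicate 1 was the highest in each of the 4 groups, and the groups overlapped. Its fitted differences were small against their errors, 0.21 ± 0.52 between eIF4E and vector in input, -0.08 ± 0.60 in Cap IP, -0.23 ± 0.56 for Cap IP minus input in eIF4E cells and 0.07 ± 0.56 in vector cells (log2, SE, edgeR adjusted p = 0.892, 0.984, 0.766 and 0.941).

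PSAT1 had 7, 2 and 1 counts in eIF4E Cap IP, against 27, 5 and 2 in vector Cap IP. These are 7.18, 1.93 and 0.992 CPM in eIF4E cells and 26.3, 5.25 and 1.28 in vector cells. In input PSAT1 had 12.7, 2.44 and 5.19 CPM in eIF4E cells and 12.9, 10.2 and 2.11 in vector cells. Replicate 1 was again the highest of each group, replicate 3 was the lowest in 3 of the 4, and the groups overlapped. PSAT1 had the largest fitted difference of the 10 between eIF4E and vector Cap IP, -1.63 ± 0.97 (SE, edgeR adjusted p = 0.652), with an interval of -3.64 to 0.39. Without vector Cap IP replicate 1 that value was 0.19. For PSAT1, Cap IP minus input was -1.04 ± 0.95 (SE, edgeR adjusted p = 0.389) in eIF4E cells and 0.36 ± 0.80 (SE, edgeR adjusted p = 0.754) in vector cells.

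ATF4 binds C/EBP-ATF response elements, and a match to TGATGNAA, searched on both strands in the 250 bases before and 50 after each RefSeq start, was found in 2 of the 10 genes, ASNS and CHAC1, against 3.62% of 35116 such windows. Genes and windows are unlike units, so these shares are a description and not a test. These matches are shown because they mark what ASNS and CHAC1 share beyond their role, with the motif in capitals and 10 bases on each side. The ASNS stretch is chr7:97872459-97872486 (minus strand) and the CHAC1 stretch chr15:40953252-40953279 (plus strand), where the motif is on the other strand. Sequences are from RefSeq, build GRCh38.p14, written along the gene.
ASNS: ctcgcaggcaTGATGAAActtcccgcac
CHAC1: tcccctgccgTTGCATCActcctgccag
Both lie upstream of the RefSeq start and outside the exons of the canonical transcript, within noncoding exon sequence of other transcripts in GENCODE. The RNA data hold no measure of binding there.

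TRIB3, a pseudokinase that restrains AKT and feeds back on ATF4, had 10.3, 13.2 and 26.0 CPM in eIF4E input, against 8.40, 12.3 and 7.17 in vector input. Replicates 2 and 3 of eIF4E input lay above all 3 vector input libraries, and replicate 1 lay within their range. The fitted difference, 0.82 ± 0.41 (SE, edgeR adjusted p = 0.388), had an interval of -0.03 to 1.66 and the smallest p of the 10 in input, 0.0580 before adjustment. In Cap IP it had 9.24, 7.73 and 12.9 CPM in eIF4E cells and 12.6, 9.46 and 8.30 in vector cells, a fitted difference of -0.01 ± 0.48 (SE, edgeR adjusted p = 0.999). Cap IP over input for TRIB3 stood at -0.71 ± 0.43 (SE, edgeR adjusted p = 0.188) in eIF4E cells and 0.11 ± 0.45 (SE, edgeR adjusted p = 0.862) in vector cells.

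CHAC1, which degrades glutathione, had 9.24, 13.5 and 7.93 CPM in eIF4E Cap IP, 13.6, 11.6 and 4.47 in vector Cap IP, 5.53, 4.89 and 13.5 in eIF4E input and 11.0, 5.88 and 1.26 in vector input. Its lowest library, vector input replicate 3, held 3 counts, and all groups overlapped. The fitted difference was 0.45 ± 0.60 (SE, edgeR adjusted p = 0.774) between eIF4E and vector input, and Cap IP minus input was 0.72 ± 0.63 (SE, edgeR adjusted p = 0.377) in vector cells.

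DDIT4 (REDD1), an inhibitor of mTORC1 signalling, had 6.16, 16.4 and 21.8 CPM in eIF4E Cap IP, against 17.5, 14.7 and 35.8 in vector Cap IP. In input it had 22.9, 14.7 and 25.4 CPM in eIF4E cells and 14.2, 23.0 and 18.5 in vector cells. The lowest was eIF4E Cap IP replicate 1 with 6 counts, the highest was vector Cap IP replicate 3, and the groups overlapped. In Cap IP the fitted difference between eIF4E and vector was -0.64 ± 0.44 (SE, edgeR adjusted p = 0.718), with an interval of -1.57 to 0.28. The difference of Cap IP enrichment was -0.82 ± 0.60 (SE, edgeR adjusted p = 0.869).

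HSPA5, or BiP, the main ER chaperone of the HSP70 family, lies on chromosome 9 at 125234853 to 125241382 (minus strand) with no exon opposite to it. It had 149, 114 and 113 CPM in eIF4E Cap IP, against 93.3, 102 and 97.7 in vector Cap IP. All 3 eIF4E libraries were above all 3 vector libraries there, the only pair of groups among the 10 genes without overlap between eIF4E and vector, where 6.16% of all tested genes were higher and 7.39% lower without overlap. The fitted difference was 0.36 ± 0.26 (SE, edgeR adjusted p = 0.741), with an interval of -0.19 to 0.90, which did not pass. It lay on the other side of 0, at -0.44, with library sizes from mitochondrial mRNAs, which moved the median of all genes to -0.63. These mRNAs held 1.72%, 0.367% and 2.43% of the counts in vector Cap IP (replicates 1, 2 and 3). In eIF4E Cap IP they held 2.30%, 0.866% and 1.88%, so that scaling varied between replicates. In input HSPA5 had 167, 157 and 108 CPM in eIF4E cells and 129, 118 and 101 in vector cells, which overlapped, with a fitted difference of 0.31 ± 0.25 (SE, edgeR adjusted p = 0.613). Cap IP minus input was -0.20 ± 0.26 (SE, edgeR adjusted p = 0.538) in eIF4E cells and -0.25 ± 0.26 (SE, edgeR adjusted p = 0.466) in vector cells. The genes most like HSPA5 over the 12 libraries were HSPA4, another HSP70 family gene, CTD-2033D15.1, DCBLD2 and TOP2A (Pearson r 0.824, 0.807, 0.801 and 0.795).

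HSP90B1, or GRP94, the ER chaperone of the HSP90 family, lies on chromosome 12 at 103930107 to 103953931 (plus strand). It had 228, 126 and 131 CPM in eIF4E Cap IP, against 176, 90.9 and 35.8 in eIF4E input. The eIF4E input libraries held 445, 186 and 69 counts, the widest spread of any group of HSP90B1, and replicate 1 overlapped with Cap IP. In vector cells it had 168, 135 and 178 CPM in Cap IP and 161, 107 and 162 in input, which also overlapped. Cap IP minus input in eIF4E cells was 0.67 ± 0.40 (SE, edgeR adjusted p = 0.176), with an interval of -0.16 to 1.5. Without eIF4E input replicate 1 it was 1.35 (edgeR adjusted p = 0.0102), the only call that leaving out a library made for any of the 10 genes. With the title stem as a block HSP90B1 was also called higher in Cap IP of eIF4E cells. In vector cells Cap IP minus input was 0.16 ± 0.39 (SE, edgeR adjusted p = 0.778), and eIF4E minus vector was -0.50 ± 0.39 (SE, edgeR adjusted p = 0.599) in input. Of its exon bases, 805 (6.1%) lie opposite to UQCC6 (C12orf73 in the count table), which had 105 counts in all 12 libraries, against 2599 for HSP90B1. The strand doubt applies to both counts, and the part of UQCC6 reads in the HSP90B1 counts was not tested. The genes most like HSP90B1 over the 12 libraries were AC005104.3, RP11-378J18.8, MTSS1 and CALD1 (Pearson r 0.946, 0.935, 0.915 and 0.914).

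XBP1, the transcription factor whose mRNA IRE1 splices, lies on chromosome 22 at 28794555 to 28800597 (minus strand). Spliced and unspliced forms share 1 gene count here. It had 21.5, 36.7 and 26.8 CPM in eIF4E Cap IP, against 29.2, 35.7 and 51.7 in vector Cap IP. In input XBP1 had 30.8, 19.1 and 24.9 CPM in eIF4E cells and 23.9, 29.9 and 29.5 in vector cells. The highest library was vector Cap IP replicate 3, and the groups overlapped. The change in Cap IP over input was 0.18 ± 0.33 (SE, edgeR adjusted p = 0.675) in eIF4E cells and 0.49 ± 0.32 (SE, edgeR adjusted p = 0.226) in vector cells, where the interval was -0.17 to 1.15. The fitted difference between eIF4E and vector was -0.47 ± 0.33 (SE, edgeR adjusted p = 0.728) in Cap IP and -0.16 ± 0.31 (SE, edgeR adjusted p = 0.865) in input.

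HSPA5, HSP90B1 and XBP1 share the ER stress response element, CCAAT and CCACG with 9 bases of any kind between them, through which cleaved ATF6 and NF-Y act. It was found on either strand in 3 of the 10 genes, once in HSPA5, at 2 places in HSP90B1 and once in XBP1, against 27 of 35116 RefSeq windows (0.0769%). The short motif CCACG, which the element contains, was in 7 of the 10 and in 38.1% of windows, and TGACGTG, the XBP1 binding motif, was in 0 of the 10 and in 1.97%. Genes and windows are unlike units, since some of the 10 genes have 2 or 3 windows. The 10 were picked as stress response genes, so these shares are a description and not a test. The matches are printed because exact matches were found in these 3 genes and not in the other 7. Matches with a changed base were not searched. The element is in capitals, with 5 bases on each side (RefSeq, build GRCh38.p14, written along the gene).
HSPA5: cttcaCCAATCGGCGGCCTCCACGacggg
HSP90B1 upstream match: cctgaCCAATCGGAAGGAGCCACGcttcg
HSP90B1 downstream match: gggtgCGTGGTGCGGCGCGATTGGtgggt
XBP1: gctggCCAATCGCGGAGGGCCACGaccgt
Their positions are chr9:125241386-125241414 (minus strand), chr12:103930211-103930239 and chr12:103930316-103930344 (plus strand) and chr22:28800598-28800626 (minus strand), all upstream of the RefSeq start. The downstream match of HSP90B1 is on the other strand. Both HSP90B1 matches lie in noncoding exon sequence of noncanonical transcripts, and the upstream one also in an exon of TTC41P. For Cap IP minus input in vector cells the fitted values of these 3 genes had different signs, -0.25 ± 0.26 for HSPA5, 0.16 ± 0.39 for HSP90B1 and 0.49 ± 0.32 for XBP1 (log2, SE), with intervals that all include 0.

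The median of the 10 genes for Cap IP minus input in eIF4E cells was -0.21, against -0.13 for all genes, and 4 of the 10 were above that value. In vector cells the same quantity had a median of 0.34 over the 10, against -0.04 over all tested genes, and 9 of the 10 were above the median of all genes. With total counts as library sizes the median of all genes there moved to -0.76 and all 10 were negative, and 9 of the 10 were still above that median. Without vector Cap IP replicate 1, or without vector input replicate 3, 6 of the 10 were above the median of all genes. The difference of enrichment had a median of -0.33, against 0.02 for all genes, and 7 of the 10 were negative, or 8 with total counts as the library size. In input the 10 had a median eIF4E minus vector difference of 0.19, against -0.05, and 6 were positive. In Cap IP the median was -0.05, against -0.01, and 4 were positive. With mitochondrial mRNAs as the library size the medians of all genes moved, to -0.87 for the difference, -0.63 in Cap IP and 0.25 in input. Of the 10 genes, 1, 3 and 6 lay above those medians, against 3, 5 and 6 above the medians under TMM scaling. The comparisons share libraries, so these medians are not independent of each other.

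Input and Cap IP libraries whose titles share a stem were also compared 1 by 1, as log2 of CPM plus 2 in Cap IP over input. Such a pair is called a culture here, which the labels do not state. ATF4 gave 0.00, -0.19 and -0.53 in the eIF4E cultures and 0.40, -0.07 and 0.91 in the vector cultures (replicates 1, 2 and 3), with 1 eIF4E culture close to 0 and the other 2 below it. DDIT3 gave 1.60, 0.68 and -0.28 in eIF4E cultures and 0.80, 0.55 and -0.08 in vector cultures, so replicate 3 stood below 0 in both kinds of cell. HSP90B1 gave 0.37, 0.46 and 1.81 in eIF4E cultures and 0.06, 0.32 and 0.13 in vector cultures. It was the only gene of the 10 above 0 in all 6 cultures, and its largest value rests on the 69 input counts of eIF4E replicate 3. TRIB3 gave -0.13, -0.64 and -0.91 in eIF4E cultures and 0.49, -0.32 and 0.17 in vector cultures, and PSAT1 gave -0.67, -0.18 and -1.27 and 0.92, -0.74 and -0.33 in the same order. TRIB3 and PSAT1 were below 0 in all 3 eIF4E cultures and on both sides of 0 in vector cultures. HSPA5 gave -0.17, -0.46 and 0.06 in eIF4E cultures and -0.46, -0.21 and -0.05 in vector cultures, the narrowest of the 10. The median of all tested genes lay between -0.13 and -0.05 in these cultures.

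**Figure D3:**
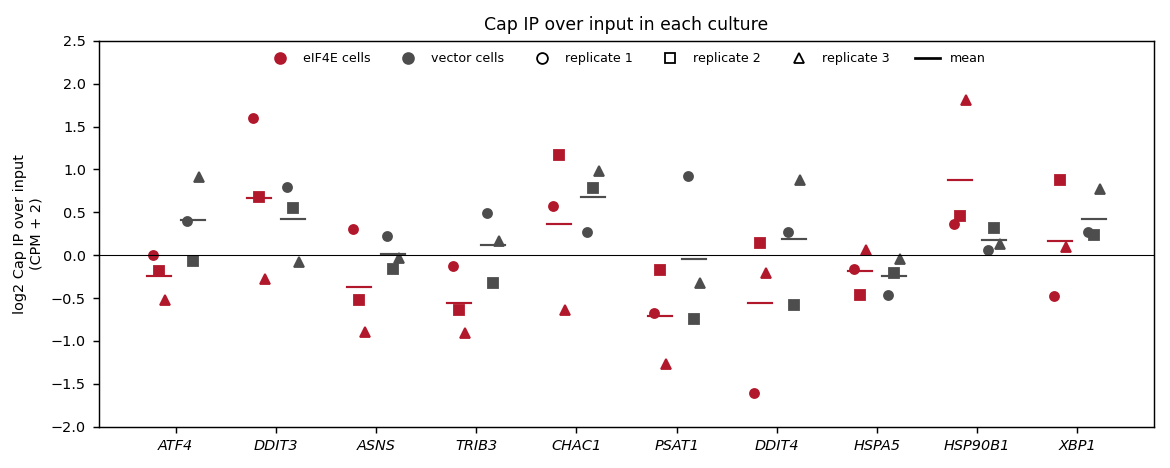
Log2 of Cap IP over input (CPM plus 2) for each of the 10 genes in each culture, eIF4E in red and vector in grey, with replicates as circles, squares and triangles and the mean as a bar. HSP90B1 is above 0 in all 6 cultures, and TRIB3 and PSAT1 are below 0 in all 3 eIF4E cultures.

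Other genes of the same pathways were taken from 6 lists, 109 genes in all, of which 108 were in the table and 101 were tested. Some of these were called by edgeR when Cap IP was set against input, in each direction at a smaller share than among all tested genes. In eIF4E cells 11 were higher and 21 lower, and in vector cells 12 higher and 14 lower, where 21.9% and 23.3% of all genes were called higher and lower in eIF4E cells and 18.5% and 21% in vector cells. In eIF4E cells the count of higher genes was 7 without eIF4E input replicate 1 and 6 without eIF4E Cap IP replicate 2, and in vector cells the count of lower genes was 9 without vector input replicate 1 and 8 without vector Cap IP replicate 1. The split depended on the scaling. With total counts as library sizes it was 2 higher and 52 lower in eIF4E cells and 2 higher and 39 lower in vector cells, and with mitochondrial mRNAs 1 higher and 0 lower in eIF4E cells and 18 higher and 0 lower in vector cells. Between eIF4E and vector, 0 of 101 were called in input by edgeR (7 at an unadjusted p under 0.05), 0 in Cap IP (10) and 0 for the difference of enrichment (2). A gene called in 1 kind of cell and not in the other is not thereby shown to differ between them, since 0 of 101 passed the test of that difference. The values below are from TMM scaling on the log2 scale, and they are relative to the average gene. Opposite exons are named for some genes only. Others below have them too, among them AARS (opposite to DDX19B), SLC7A5, EIF2B2, HYOU1 and P4HB.

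Of 28 tested amino acid response and ATF4 target genes, 1 rose and 7 fell in Cap IP of eIF4E cells, and 4 rose and 3 fell in vector cells. SLC7A1, a transporter of cationic amino acids, fell to 17.2 ± 6.29 CPM in eIF4E Cap IP, against 63.9 ± 9.10 in input (SD, n = 3 each), a change of -1.89 ± 0.33 (SE, edgeR adjusted p = 1.57e-04), and was -1.82 ± 0.34 in vector cells (edgeR adjusted p = 3.90e-04). SLC7A5, a large neutral amino acid transporter, fell at -1.53 in eIF4E cells and -1.21 in vector cells (edgeR adjusted p = 0.00160 and 0.00962), and in vector cells did not pass without vector input replicate 1 (-0.94, edgeR adjusted p = 0.0558). GPT2, a transaminase, fell in eIF4E cells, at -1.89, and was at -0.60 in vector cells (edgeR adjusted p = 0.00157 and 0.249). SLC6A9, a glycine transporter with exons opposite to CCDC24, rose, by 1.19 in eIF4E cells and 1.12 in vector cells. NUPR1 and CEBPB, both transcriptional regulators, were at 0.54 and 0.43 in eIF4E cells (edgeR adjusted p = 0.183 and 0.192) and rose in vector cells, by 1.31 and 0.95. CEBPB lies opposite to CEBPB-AS1. In eIF4E cells NUPR1 passed without eIF4E input replicate 3 (0.96, edgeR adjusted p = 0.0220).

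GDF15, a secreted stress cytokine that ATF4 and CHOP induce, had the smallest p of these 28 between eIF4E and vector. It averaged 19.2 ± 11.4 CPM in eIF4E input, against 4.33 ± 3.10 in vector input, and 16.1 ± 8.59 CPM in eIF4E Cap IP, against 3.13 ± 2.86 in vector Cap IP (SD, n = 3 each). The fitted difference was 2.08 ± 0.61 in input (SE, edgeR adjusted p = 0.137) and 2.18 ± 0.71 in Cap IP (edgeR adjusted p = 0.322). Without eIF4E input replicate 1 GDF15 passed in input (2.51, edgeR adjusted p = 0.0442). That was 1 of 6 fits with a library left out, which ranged from 1.70 to 2.65 (edgeR adjusted p up to 0.429). In Cap IP 0 of 6 such fits passed, at 1.85 to 3.38 (edgeR adjusted p = 0.181 to 0.756). With the title tag as a block GDF15 passed in Cap IP, at 2.19 (edgeR adjusted p = 0.0310). The vector Cap IP mean of GDF15, 3.13 CPM, lies near the floor of 3 counts, which is 2.92, 3.15 and 1.92 CPM in those libraries (replicates 1, 2 and 3). DDIT3, the factor that shares this target with ATF4, stood at -0.17 ± 0.42 in input and 0.04 ± 0.42 in Cap IP (SE).

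Among 19 tested aminoacyl-tRNA synthetase genes, 2 rose and 4 fell in Cap IP of eIF4E cells, and 1 rose and 3 fell in vector cells. AARS, for alanine, fell in both, at -1.84 ± 0.30 in eIF4E cells and -1.03 ± 0.29 in vector cells (SE, edgeR adjusted p = 8.19e-05 and 0.00879), and VARS, for valine, at -1.52 ± 0.33 and -1.0 ± 0.33 (edgeR adjusted p = 0.00113 and 0.0220). With mitochondrial mRNAs as the library size, AARS and VARS stood on the other side of 0 in vector cells, at 0.08 and 0.35. In vector cells AARS did not pass without vector input replicate 2 (-0.75, edgeR adjusted p = 0.0643), nor VARS without that library (-0.59, edgeR adjusted p = 0.179) or without vector Cap IP replicate 1 (-0.80, edgeR adjusted p = 0.103). QARS, for glutamine, fell by 0.94 in eIF4E cells and was at -0.37 in vector cells (edgeR adjusted p = 0.00622 and 0.258). In input VARS was 0.79 ± 0.32 between eIF4E and vector (SE, edgeR adjusted p = 0.278), the smallest p of this list.

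The eIF2 kinase and eIF2 factor list had 14 tested genes, of which 2 rose and 3 fell in Cap IP of eIF4E cells and 1 rose and 1 fell in vector cells. EIF2AK1, the heme-regulated eIF2 kinase, rose to 1742 ± 369.6 CPM in eIF4E Cap IP, against 493 ± 106 in eIF4E input, and AIMP2, a scaffold of the synthetase complex, has exons opposite to it. Its change was 1.82 ± 0.36 in eIF4E cells and 1.46 ± 0.35 in vector cells (SE, edgeR adjusted p = 4.18e-04 and 0.00296). EIF2B2, a subunit of the exchange factor that phosphorylated eIF2 blocks, fell by 1.22 in eIF4E cells and was at -0.42 in vector cells (edgeR adjusted p = 0.00634 and 0.296). PPP1R15A (GADD34), a phosphatase subunit that ATF4 induces and that reverses eIF2 phosphorylation, fell by 1.11 in eIF4E cells (edgeR adjusted p = 0.0405) and did not pass without eIF4E input replicate 3 (-0.50, edgeR adjusted p = 0.332), without eIF4E Cap IP replicate 1 (-1.0, edgeR adjusted p = 0.112) or without replicate 2 (-0.91, edgeR adjusted p = 0.146). Between eIF4E and vector in input it was 0.77 ± 0.40 (SE, edgeR adjusted p = 0.415).

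Of 5 tested genes for ER stress sensors and their proteases, 0 rose and 2 fell in Cap IP, in eIF4E and in vector cells. They were MBTPS1, the protease that starts the cleavage of ATF6, at -2.11 ± 0.36 in eIF4E cells and -1.4 ± 0.33 in vector cells, and the ATF6 relative ATF6B, at -2.15 ± 0.42 and -1.02 ± 0.40 (SE, edgeR adjusted p = 1.21e-04, 0.00270, 4.05e-04 and 0.0467). MBTPS1 averaged 11.9 ± 2.80 CPM in eIF4E Cap IP, against 51.5 ± 1.85 in eIF4E input (SD, n = 3 each). In vector cells ATF6B did not pass without vector input replicate 3 (-0.64, edgeR adjusted p = 0.261), vector Cap IP replicate 1 (-0.81, edgeR adjusted p = 0.158) or replicate 2 (-0.90, edgeR adjusted p = 0.134).

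Among 15 tested ER chaperone and folding genes, 0 rose and 2 fell in Cap IP of eIF4E cells, and 2 rose and 2 fell in vector cells. HYOU1, an ER chaperone that releases nucleotide from HSPA5, fell to 39.7 ± 10.3 CPM in eIF4E Cap IP, against 116 ± 22.8 in eIF4E input, a change of -1.54 ± 0.33, and changed by -1.14 ± 0.33 in vector cells (SE, edgeR adjusted p = 9.92e-04 and 0.00982). P4HB, protein disulfide isomerase, fell by 1.28 in eIF4E cells and was at -0.62 in vector cells (edgeR adjusted p = 8.36e-04 and 0.0717). In vector cells P4HB passed with the title stem as a block (-0.65, edgeR adjusted p = 0.0202) and without vector Cap IP replicate 3 (-0.86, edgeR adjusted p = 0.0226). FKBP2, a prolyl isomerase of the ER, was at 0.50 in eIF4E cells and rose by 1.16 in vector cells (edgeR adjusted p = 0.131 and 0.00189). HYOU1 did not pass in vector cells without vector Cap IP replicate 1 (-0.82, edgeR adjusted p = 0.0557). HSPA5 and HSP90B1, the chaperones described above, were not called in the main fit.

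The list of XBP1 targets, ER-associated degradation and ER entry had 22 tested genes, of which 6 rose and 4 fell in Cap IP of eIF4E cells and 4 rose and 3 fell in vector cells. Subunits of the Sec61 channel, through which proteins enter the ER, went both ways. SEC61A1, the pore subunit, fell by 1.68 in eIF4E cells and 1.4 in vector cells (edgeR adjusted p = 1.66e-04 and 0.00107), while SEC61G rose by 1.93 and 1.89 (edgeR adjusted p = 0.00241 and 0.00134). SEC61A1 lies opposite to RUVBL1 and SEC61G to SEC61G-DT. SSR4, a subunit of the translocon-associated complex opposite to IDH3G, rose by 1.06 in eIF4E cells and 1.46 in vector cells. DNAJB9, an ER cochaperone and XBP1 target, rose by 2.05 in eIF4E cells and 1.54 in vector cells (edgeR adjusted p = 0.00311 and 0.0226). In vector cells it did not pass without vector input replicate 1 (1.4, edgeR adjusted p = 0.0661) or 2 (1.53, edgeR adjusted p = 0.0571), nor without vector Cap IP replicate 2 (1.32, edgeR adjusted p = 0.0944) or 3 (1.33, edgeR adjusted p = 0.0869). Its regulator XBP1 was at 0.18 ± 0.33 in eIF4E cells and 0.49 ± 0.32 in vector cells (SE).

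**Figure D4:**
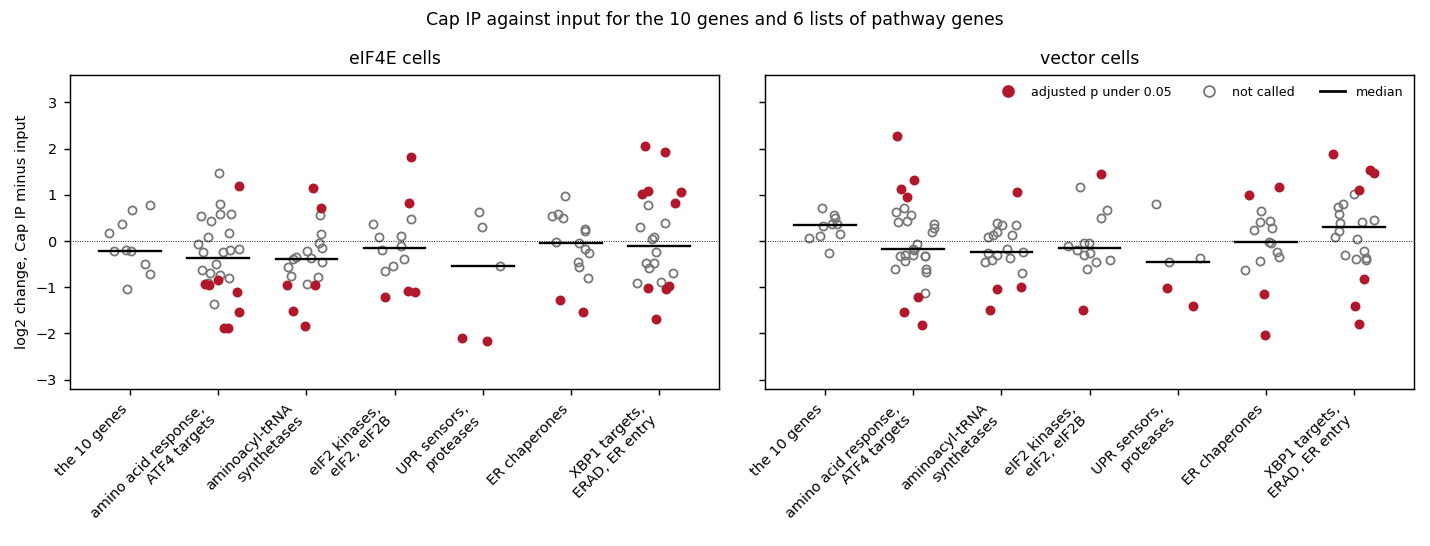
Log2 change of Cap IP minus input for the 10 genes and 6 lists of pathway genes, in eIF4E cells (left) and vector cells (right), under TMM scaling. Filled red points passed at an edgeR adjusted p under 0.05, open points did not, and bars are medians. All 10 points of the first column are open in both panels. With total counts as library sizes most called list genes are lower, and with mitochondrial mRNAs none is lower.

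Called genes differed in transcript length. The list genes called higher in Cap IP of eIF4E cells had a median canonical transcript of 2409 bases, against 3394 for those called lower, and in vector cells 2124 against 4430. Over all tested protein-coding genes with a length the medians were 2790 for higher and 4394 for lower in eIF4E cells, and 2293 for higher and 5136 for lower in vector cells. Across genes, which are not independent replicates, the Spearman correlation of the log2 change with length was -0.090 for 100 list genes in eIF4E cells and -0.285 in vector cells, against -0.284 and -0.403 over all 9247 protein-coding genes. Canonical transcripts of the 10 genes run from 903 bases in DDIT3 and 1419 in ATF4 to 3921 in HSPA5. In eIF4E cells the highest of the 10 for Cap IP minus input was DDIT3, the shortest, and the lowest was PSAT1, at 2206 bases. In vector cells the highest was CHAC1 and the lowest HSPA5, the longest. The part of length in these values was not tested.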

How the data were processed

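The series holds 12 RNA sequencing libraries of U2OS cells in 4 groups of 3. The deposited values are raw counts of reads per gene name, with no normalization. Per the submitters' processing notes, the authors aligned reads with STAR 2.5.1b to GRCh38.p5, counted them with featureCounts 1.4.5-p1 and used DESeq2. Per the labels' protocols, the KAPA RNA HyperPrep kit with RiboErase was used for the libraries, which were read over 75 cycles. The sources used here give neither the gene annotation nor the strand setting of the counting.

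The analysis of the counts used edgeR 4.0.16 under R 4.3.3. Genes were kept by filterByExpr (12460 of 58684), scaled by TMM and fitted with the quasi-likelihood model with 1 mean per group over all 12 libraries, in 5 comparisons, and p-values were adjusted by Benjamini-Hochberg over all tested genes and called under 0.05. TMM sets Cap IP and input to the same average gene, so Cap IP minus input is relative to that gene and not an absolute recovery. Intervals on log2 changes are 95% and rest on 3 libraries a group. A floor of 3 counts covers counting error only. A pseudocount of 2 CPM entered the ratios per culture. The model was tested on simulated data. Of 2-fold changes it recovered 14% for eIF4E minus vector in input, 8% in Cap IP and 2% for the difference of enrichment. For Cap IP minus input it recovered 16% in eIF4E cells and 12% in vector cells. Of 4-fold changes it recovered 73% for eIF4E minus vector in input, 70% in Cap IP and 23% for the difference.

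The 10 genes, the 6 lists, the tests and the alternatives were chosen with earlier results of these data known. All 10 genes were named. From each list, genes past the threshold were named, up to 4 with the smallest p in a comparison, and where none passed up to 2 with the smallest p as values. Genes named for Cap IP minus input in 1 kind of cell are given in both. Some called genes that this rule allows, whose calls were lost without a library, are counted and not named. In addition, 1 called list gene is counted and not reported here. Genes opposite to one of the 10 in exons were named, and for the 3 of the 10 with the most counts the 4 genes most correlated over the 12 libraries, among genes whose average log2 CPM reached 5.

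Positions, transcript lengths and opposite exons come from GENCODE release 44, which shares the GRCh38 coordinates but may differ from the annotation used for counting. By name 35384 genes matched. Promoter windows and sequences come from RefSeq (GRCh38.p14), where all 10 genes matched. The annotation, sequences and figures used pandas 2.3.3, NumPy 2.4.6 and matplotlib 3.10.9 under Python 3.11.15 throughout.

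Whether libraries pair was checked by correlating residuals from the group means. For titles with a shared stem these were 0.35, 0.08 and 0.11 in eIF4E cells and 0.43, 0.27 and 0.44 in vector cells, and for titles with a shared tag 0.20, 0.16 and 0.30 in Cap IP and 0.18, 0.01 and -0.04 in input. Stems in vector cells and tags in Cap IP were taken to pair libraries. No replicates of a group were copies of each other (chi-square per degree of freedom 5.98 to 23.0). Alternatives were DESeq2 1.42.0, DESeq2 size factors, total counts or the 13 mitochondrial mRNAs as library sizes, no filter, only the groups compared, blocks for stem and tag, and leaving out 1 library at a time.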

Additional observations from a re-analysis of the deposited data

How the results depend on the processing

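With total counts as library sizes, 4 of the 10 genes were called lower in Cap IP of eIF4E cells (ATF4 -1.08, TRIB3 -1.49, DDIT4 -1.30 and HSPA5 -1.07, edgeR adjusted p = 0.00742, 0.00712, 0.0299 and 0.00285) and 1 lower in vector cells (HSPA5 -0.97, edgeR adjusted p = 0.00704), while the median of all genes moved to -0.97 and -0.76. With mitochondrial mRNAs 1 gene was called higher in vector cells (DDIT3 2.00, edgeR adjusted p = 0.0464), where the median of all genes was 0.97. With the replicate block for the title stem, 2 genes were called higher in Cap IP of eIF4E cells (DDIT3 0.68 and HSP90B1 0.86, edgeR adjusted p = 0.0303 and 0.00479). The residual correlations of these stems were 0.35, 0.08 and 0.11, all above 0, and the smallest was taken as too low for pairing. The labels do not say whether these libraries pair. Over all genes that block called 51 for the difference of enrichment, in place of 0, and the tag block called 462 in input, in place of 66. Leaving out each library in turn gave 0 to 1 genes called higher in Cap IP of eIF4E cells, and 0 in the other comparisons. The block for the stem in vector cells and for the tag changed no call of the 10 genes. DESeq2, its size factors, no filter and only the groups compared called 0 of the 10 in every comparison.

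None of the values of the 10 genes below was called in the main fit under TMM scaling, and all changed sign. Under total counts, for eIF4E minus vector in Cap IP it was HSP90B1 -0.065. For Cap IP minus input in eIF4E cells they were DDIT3 -0.093, CHAC1 -0.43, HSP90B1 -0.25 and XBP1 -0.66. For Cap IP minus input in vector cells they were ATF4 -0.36, DDIT3 -0.22, ASNS -0.66, TRIB3 -0.61, CHAC1 -0.014, PSAT1 -0.38, DDIT4 -0.36, HSP90B1 -0.55 and XBP1 -0.21. For the difference of enrichment it was HSPA5 -0.10. Under mitochondrial mRNAs, for eIF4E minus vector in input they were DDIT3 0.12, PSAT1 0.17 and XBP1 0.13. For eIF4E minus vector in Cap IP they were DDIT3 -0.93, CHAC1 -0.51, HSPA5 -0.44 and HSP90B1 -0.72. For Cap IP minus input in vector cells it was HSPA5 1.02. For the difference of enrichment they were DDIT3 -1.05, HSPA5 -1.08 and HSP90B1 -0.62. Pathway genes, added after seeing the data, changed sign under mitochondrial mRNAs, AARS to 0.076 and VARS to 0.35, both called for Cap IP minus input in vector cells, and HARS to -0.17 for eIF4E minus vector in Cap IP. Not called and also of the other sign were GPT2 0.51, QARS 0.75, EIF2B2 0.59 and P4HB 0.33 in vector cells under mitochondrial mRNAs, and NUPR1 -0.24, CEBPB -0.39 and FKBP2 -0.33 in eIF4E cells under total counts, all for Cap IP minus input. DESeq2 called P4HB lower in vector cells (-0.69, adjusted p = 0.0227). Others changed sign close to 0, under DESeq2 size factors TRIB3 0.0015 (eIF4E minus vector in Cap IP), under DESeq2 TRIB3 0.0035 (eIF4E minus vector in Cap IP) and ASNS -0.0089 (Cap IP minus input in vector cells), under no filter HSP90B1 -0.013 (eIF4E minus vector in Cap IP), ASNS -0.0015 (Cap IP minus input in vector cells) and HSPA5 -0.073 (the difference of enrichment), under only the groups compared HSP90B1 -0.00028 (eIF4E minus vector in Cap IP) and under the tag block HSP90B1 -0.065 (eIF4E minus vector in Cap IP).

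With 1 library left out at a time, 22 values of the 10 genes, none of them called, took both signs. For eIF4E minus vector in input the ranges were ASNS -0.11 to 0.61, CHAC1 -0.13 to 1.18, PSAT1 -1.08 to 0.21 and XBP1 -0.34 to 0.0043. For eIF4E minus vector in Cap IP the ranges were ASNS -1.07 to 0.54, CHAC1 -0.26 to 0.44, DDIT3 -0.33 to 0.40, HSP90B1 -0.30 to 0.18, PSAT1 -2.73 to 0.19 and TRIB3 -0.23 to 0.18. For Cap IP minus input in eIF4E cells the ranges were ASNS -1.26 to 0.10 and XBP1 -0.059 to 0.37. For Cap IP minus input in vector cells the ranges were ASNS -0.55 to 0.46, DDIT4 -0.23 to 0.54, HSP90B1 -0.010 to 0.27, PSAT1 -1.46 to 0.93 and TRIB3 -0.068 to 0.37. For the difference of enrichment the ranges were ASNS -1.31 to 0.30, CHAC1 -1.08 to 0.24, DDIT3 -0.18 to 0.56, HSPA5 -0.12 to 0.17 and PSAT1 -2.53 to 0.40. The other values kept their sign. ATF4, whose sign held in all 5 comparisons when any library was left out, was the only gene of the 10 for which this was so.

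At these depths PSAT1, CHAC1, ASNS and TRIB3 had as few as 1 to 8 counts in single Cap IP libraries, which limits what their intervals can show.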

Other observations

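The amino acid genes varied by title tag. ASNS and PSAT1 were each highest in the replicate 1 library in all 4 groups, a pattern that 3.75% of 12460 tested genes showed for that tag, against 1.76% for the tag of replicate 2 and 4.98% for that of replicate 3. ATF4, DDIT3 and HSPA5 were highest in replicate 1 in 3 of the 4 groups, and DDIT4 was highest in replicate 3 in 3 of them. These patterns were chosen after the values were seen and were not tested.

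Within groups, deviations from the group means of log2 CPM correlated most between ASNS and PSAT1 (Pearson r 0.908 over 12 libraries), ATF4 and ASNS (0.844) and ATF4 and PSAT1 (0.819). The lowest were TRIB3 and HSP90B1 (-0.77) and DDIT3 and DDIT4 (-0.72). Of the 45 pairs among the 10 genes, 25 were positive, and the median was 0.188. The points share libraries and scaling, so these values are a description.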
